A study of Mus musculus with 6 samples.

Results

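The 8 genes described here, Zfp36, Zfp36l1, Zfp36l2, Rc3h1, Rc3h2, Zc3h12a, Zc3h12d and Elavl1, encode the Zfp36, Roquin and Regnase proteins that bring about decay of mRNA, and HuR, which protects it. They are 8 of 19057 genes with a named probe, and each was followed on all probes that the array annotation assigns to its symbol, 17 of 45281 probes. Expression was compared between 3 arrays of Blimp1-deficient (CKO) and 3 arrays of Blimp1-sufficient (Ctrl) peripherally induced Foxp3+ regulatory T cells (pTreg). CKO cells were Prdm1 flox/flox CD4-Cre+ on C57BL/6 and carried Thy1.2, and Ctrl cells were Prdm1+/+ CD4-Cre+ and carried Thy1.1, so that both expressed Cre and the groups also differed at the Thy1 allele. Naïve Foxp3-GFP- CD4+ cells of adult reporter mice of both genotypes were mixed in equal parts and transferred into RAG1-/- mice, which have no T or B cells of their own, and GFP+ cells were sorted from the recipients weeks later. CD4-Cre acts in all T cells from the thymus on, so the deletion was present before the cells acquired Foxp3, and donor organs were pooled. The labels give no age or recipient for an array, and they name the cells both peripheral Treg and iTreg. The arrays of replicates 2 and 3 share slide 2 and carry the letters P+I in their labels, and those of replicate 1 lie on slide 1 with no such letters. Stimulation and slide can therefore not be told apart, nor either of them from replicate 1 against replicates 2 and 3.

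The stability of an mRNA is set largely by proteins that bind its 3' untranslated region. Zfp36 (tristetraprolin) and its relatives Zfp36l1 and Zfp36l2 bind AU-rich elements through a pair of CCCH zinc fingers and recruit the CCR4-NOT deadenylase, whereas HuR, the product of Elavl1, binds AU- and U-rich sequences and stabilizes the mRNA. Roquin-1 (Rc3h1) and Roquin-2 (Rc3h2) recognize stem-loops, and Regnase-1 (Zc3h12a) cleaves such stem-loops itself, with Regnase-4 (Zc3h12d) as a relative. In T cells these proteins restrain cytokine and costimulatory mRNAs, and loss of Roquin or Regnase-1 function in mice leads to autoimmunity. Blimp1, encoded by Prdm1, is a zinc finger protein that binds DNA and acts mainly as a transcriptional repressor.

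Values are background-subtracted intensities, quantile normalized over the 6 arrays, so they have no true unit and can be negative for a dim probe. A probe was called above background where it exceeded the 95th percentile of the array's olfactory and vomeronasal receptor probes, which was an intensity of 6.17 to 9.51. Between 32.4% and 38.3% of the probes of an array were above it. Of the member probes, 11 of 17 were above background on at least 2 arrays and were tested, covering 7 of the 8 genes, 4 were above it on 0 arrays and 2 on 1 array. The number of arrays, 3 per group, limits the precision, and p-values refer to the spread between these arrays. Prdm1, the deleted gene, gave intensities of 561, 341 and 704 in CKO and 18.9, 50.9 and 49.2 in Ctrl arrays and rose (log2 fold change 3.82, limma adjusted p = 0.0277, but 0.0515 to 0.138 with any 1 array left out and 0.451 within slide 2). The place of its probe relative to the deleted exons is unknown here, so it cannot check the labels. Il10, whose expression in Treg cells depends on Blimp1, is given with the targets further on. The T cell genes Cd3e, Cd3d and Cd3g were above background on all arrays, as was Foxp3 at 433, 165 and 216 in CKO and 480, 212 and 141 in Ctrl arrays.

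Zfp36 was the member that differed. Its mRNA was 2.54-fold lower in CKO pTreg cells, and it was the only member at the thresholds that the study used, an unadjusted p under 0.05 with a change of at least 1.5-fold. The intensities of Zfp36l1, Rc3h1, Rc3h2, Zc3h12a, Zc3h12d and Elavl1 overlapped between the groups on the brightest probe of each. Zfp36l2 was not above background on 5 of 6 arrays. After adjustment over all 9597 genes tested, 0 of 7 member genes passed without a replicate block and 1 passed with one.

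The promoters of Zfp36 and of its closest expressed relative, Zfp36l1, are shown first because Blimp1 recognizes DNA with a GAAAG core. The 250 bases before the annotated start are given from RefSeq on GRCm38.p6, in the direction of the gene, with GAAAG or its reverse complement in capitals. Zfp36 lies on the minus strand of chromosome 7 (chr7:28379229-28379478), and Zfp36l1 on the minus strand of chromosome 12 (chr12:80113014-80113263).
Zfp36: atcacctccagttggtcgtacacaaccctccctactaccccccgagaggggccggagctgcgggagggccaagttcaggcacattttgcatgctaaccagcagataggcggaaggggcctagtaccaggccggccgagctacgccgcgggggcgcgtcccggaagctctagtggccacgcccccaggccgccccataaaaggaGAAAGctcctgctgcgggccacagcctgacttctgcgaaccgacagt
Zfp36l1: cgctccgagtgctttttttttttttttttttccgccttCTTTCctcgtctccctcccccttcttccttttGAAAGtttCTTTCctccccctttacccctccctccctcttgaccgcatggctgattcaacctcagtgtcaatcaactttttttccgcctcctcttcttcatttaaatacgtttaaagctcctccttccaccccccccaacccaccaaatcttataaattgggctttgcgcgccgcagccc
Zfp36 held 1 GAAAG, 42 bases before the start, next to a TATA-like stretch. Zfp36l1 held 1 GAAAG and 2 reverse complements, the nearest 167 bases before its start. Sequences were found for 7 of the 8 members and not for Zfp36l2. The longer letters AGNGAAAG, close to the reported Blimp1 motif and containing GAAAG, occurred on neither strand of the 300-base promoters (the same 250 bases and the first bases after the start) of these 7 members, against 8.63% of 32851 promoters. GAAAG occurred on 1 strand or the other in Zfp36, Zfp36l1 and Rc3h1, and in 57.3% of all promoters. A match describes the letters and is not a binding site.

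Zfp36 was measured by 1 probe. Its intensity was 921, 707 and 767 in CKO replicates 1 to 3, against 2580, 1800 and 1770 in the Ctrl replicates, giving means of 798 ± 111 and 2050 ± 459 (SD, n = 3 each). The highest CKO array was below the lowest Ctrl array by about as much as the Ctrl arrays spanned. CKO was lower in 3 of 3 same-numbered pairs, by log2 differences of -1.49, -1.34 and -1.21. The log2 fold change was -1.35 ± 0.25 (SE), with a 95% interval of -1.92 to -0.77. By limma its p was 0.00066 and its Benjamini-Hochberg adjusted p 0.11, so the difference did not pass the adjusted threshold that 26 genes (0.271%) passed. CKO and Ctrl arrays of replicates 2 and 3 share a day in their labels and those of replicate 1 a slide, and a fit with the replicate block gave an adjusted p of 0.0235 (SE 0.19, 95% interval -1.79 to -0.91), where 183 genes (1.91%) passed. A slide block gave 0.0649. In rank of p, Zfp36 was number 58 of the genes tested, and 92 genes (0.959%) were at least as much lower.

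**Figure D1:**
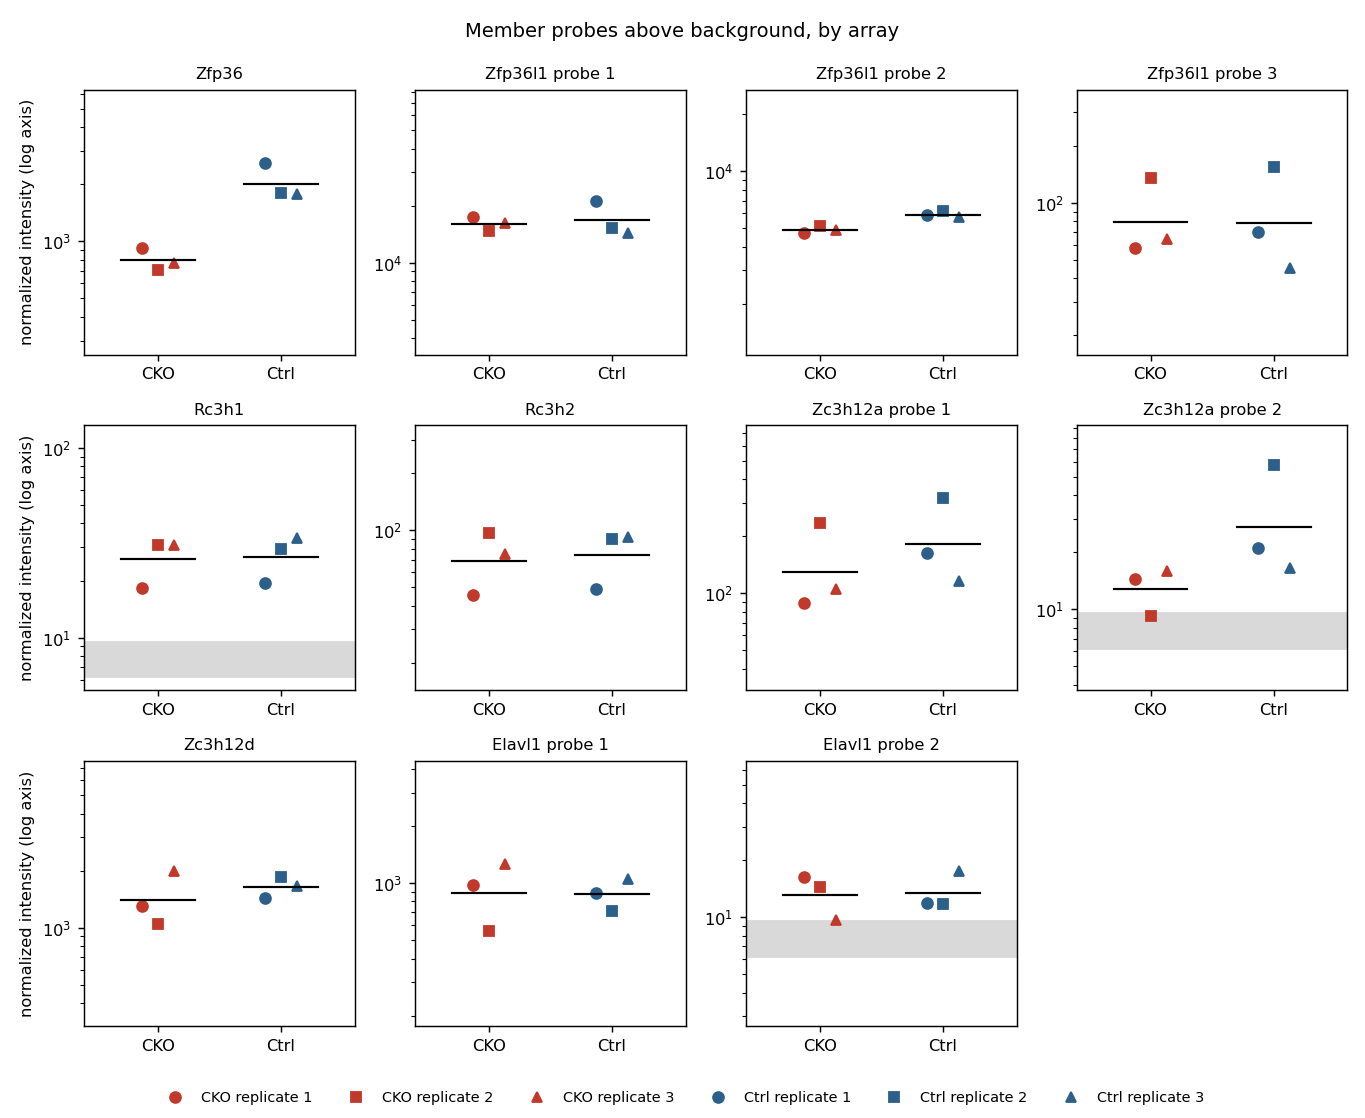
Normalized intensity (log axis, each panel spanning the same range in folds) of the 11 member probes above background on at least 2 arrays. Points are single arrays, circles, squares and triangles for replicates 1, 2 and 3, lines are geometric means, and the grey band is the range of the background levels. The 3 CKO arrays of Zfp36 sit between 707 and 921 and the 3 Ctrl arrays between 1770 and 2580.

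The genotype difference of Zfp36 was similar in size on both slides. Its log2 fold change differed by 0.21 between slide 2 and slide 1 (limma interaction, adjusted p = 1). This interaction had a single pair on slide 1, and no gene passed it (0%, 0 of 9597 genes, with 230 at an unadjusted p under 0.05). Within slide 2, where 2 pairs remained, the log2 fold change was -1.29 (adjusted p = 0.513).

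Zfp36l1, the paralog that shares the zinc fingers and the AU-rich targets of Zfp36, was represented by 3 probes that were above background on all 6 arrays. The brightest read 17400, 14700 and 16200 in CKO and 21300, 15300 and 14400 in Ctrl arrays. These groups overlapped, and the log2 fold change was -0.06 ± 0.24 (SE), with a 95% interval of -0.61 to 0.49, which leaves out a decrease as large as that of Zfp36. The next probe read 4710, 5170 and 4930 in CKO and 5850, 6170 and 5720 in Ctrl arrays. Here the groups did not overlap, but the difference was small (log2 fold change -0.26 ± 0.21, limma adjusted p = 0.898 over probes). The third, dim probe read 58, 135 and 64.7 in CKO and 70, 154 and 45.2 in Ctrl arrays and was high on the arrays of replicate 2 in both groups. The sources used here do not say which transcripts of Zfp36l1 each probe reads.

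Zfp36l2, the third AU-rich binding protein of this family in T cells, stayed at the background. Its single probe read -0.846, 0.833 and 1.86 in CKO and 7.79, 6.03 and 6.18 in Ctrl arrays. It was above background on Ctrl replicate 1 alone and entered no test. The 3 Ctrl values were above the 3 CKO values, yet all but 1 of the 6 lie below the background level of their array. A dim probe does not show that the mRNA was absent.

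The Roquins showed no difference beyond the spread of the replicates. Rc3h1 read 18.3, 30.9 and 30.9 in CKO and 19.4, 29.2 and 33.6 in Ctrl arrays, a log2 fold change of -0.04 ± 0.32 (SE) with a 95% interval of -0.77 to 0.69. Rc3h2 read 45.6, 96.8 and 74.7 in CKO and 48.8, 90.5 and 91.7 in Ctrl arrays, a log2 fold change of -0.10 ± 0.37 with an interval of -0.95 to 0.76. For both genes the arrays of replicate 1 were the lowest in either group. The intervals are wide, and changes of up to about 1.5-fold in either direction are within them. Of their other probes, 1 of Rc3h1 was above background on 1 array and the remaining 4 on 0 arrays.

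The Regnases were lower on average in CKO cells but not beyond their spread. Zc3h12a (Regnase-1) read 88.6, 235 and 105 in CKO and 163, 318 and 116 in Ctrl arrays on its brighter probe. Replicate 2 was the highest in either group, and CKO was lower in 3 of 3 same-numbered pairs by -0.88, -0.43 and -0.16 on the log2 scale. The log2 fold change was -0.49 ± 0.48 (SE), with an interval of -1.59 to 0.61 and an adjusted p of 0.916 by limma (0.324 with the replicate block). The dimmer probe read 14.4, 9.17 and 15.9 in CKO and 21.1, 57.6 and 16.5 in Ctrl arrays. These groups did not overlap, with a log2 fold change of -1.08 ± 0.47 and a limma adjusted p of 0.662 over probes, but the pair of replicate 2 alone differed by -2.65, and the pairs of replicates 1 and 3 by -0.55 and -0.05. Zc3h12d (Regnase-4) read 1300, 1050 and 1980 in CKO and 1430, 1860 and 1650 in Ctrl arrays. CKO replicate 3 was the highest array of all and CKO replicate 2 the lowest, and the log2 fold change was -0.24 ± 0.29 with an interval of -0.90 to 0.43.

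Elavl1 (HuR), the stabilizing counterpart, did not differ beyond its spread. Its brighter probe read 981, 562 and 1260 in CKO and 886, 714 and 1050 in Ctrl arrays. The same-numbered arrays ran together, low in replicate 2 and high in replicate 3, and the log2 fold change was 0.02 ± 0.34 (SE), with an interval of -0.76 to 0.80. Its dim probe read 16.3, 14.4 and 9.63 in CKO and 11.9, 11.7 and 17.5 in Ctrl arrays, with a log2 fold change of -0.04 ± 0.29.

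Over the 11 tested member probes, 3 had groups that did not overlap, 1 probe each of Zfp36, Zfp36l1 and Zc3h12a, and all 3 were lower in CKO cells. Among all 14817 named probes tested, 6.51% were lower in CKO without overlap. In the fit over probes, where 22 probes (0.148%) passed the adjusted threshold, 0 member probes passed it, and with the replicate block 1 did, that of Zfp36 (adjusted p = 0.033). At the study's thresholds, 1 of the 7 member genes tested was lower and 0 were higher, beside 4.37% of all genes lower and 3.06% higher. Their median log2 fold change was -0.10, against 0.02 over all genes tested.

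**Figure D2:**
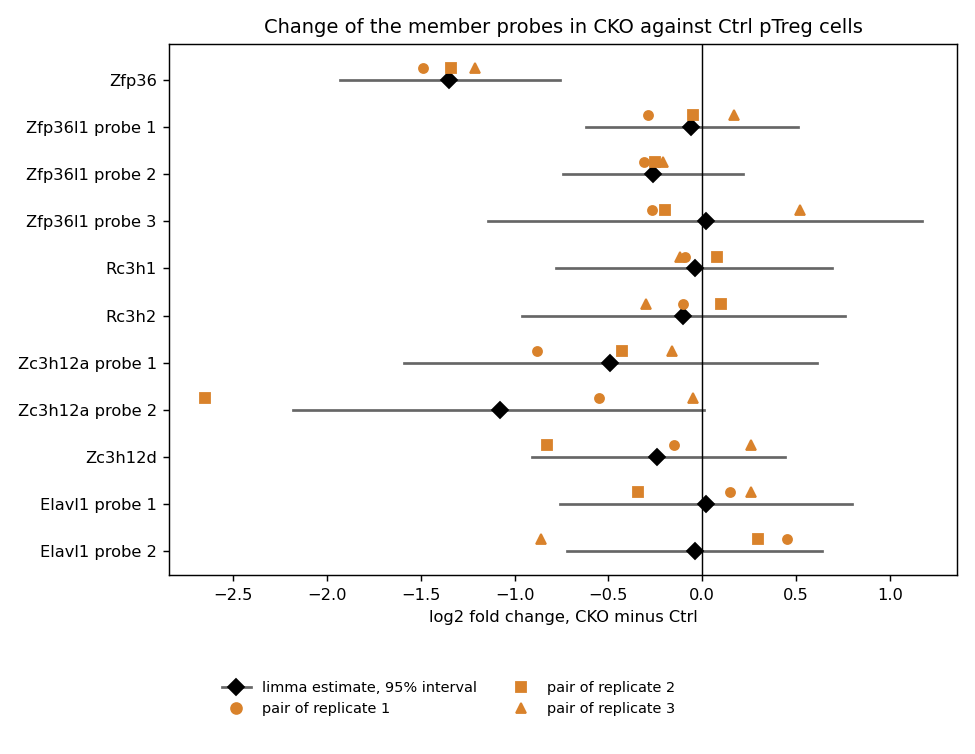
Log2 fold changes (CKO minus Ctrl) of the 11 tested member probes with 95% limma intervals (diamonds and bars) and the differences of the 3 same-numbered pairs (orange). Among these probes the interval of Zfp36 alone lies wholly below 0, at -1.35, and the pairs of Zc3h12a probe 2 spread between -2.65 and -0.05.

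Zfp36 is also an immediate early gene, induced within minutes in stimulated T cells, so its level was set beside early activation genes. Of 19 such genes (among them Fos, Egr1 and Cd69), 18 were tested, all but Nr4a1. Of these 18, 0 met the study's thresholds in either direction, with 0 at an unadjusted p under 0.05 by limma. With the replicate block, 3 had an unadjusted p under 0.05, against 1539 of all 9597 genes. Of these 3, Jun and Egr1 were lower at the study's thresholds, beside 7.31% of all genes lower and 4.76% higher. After adjustment 0 of the 18 passed. In all 3 same-numbered pairs, 8 of the 18 genes (44.4%) were lower in CKO, against 17.9% of all genes. Higher in all 3 pairs were 3 of the 18, against 1840 of all 9597 genes. The median log2 fold change of the 18 was -0.27, with a range of -0.73 to 0.76, and without CKO replicate 3 the median was 0.09. The median intensity of the list was 1260, 1640 and 571 in CKO and 1420, 1420 and 679 in Ctrl arrays, so it was low in replicate 3 of both groups. Over the same replicates Zfp36 read 921, 707 and 767 in CKO and 2580, 1800 and 1770 in Ctrl arrays. Without the block, Jun was at -0.73 ± 0.32, Egr1 at -0.62 ± 0.30 and Myc at 0.57 ± 0.29 on the log2 scale (SE), and with it the adjusted p of Jun was 0.17 and that of Egr1 0.192. The part of stimulation in the Zfp36 difference was not tested.

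Zfp36 is abundant in myeloid cells, and markers of other cell types are therefore given beside it. Of 7 myeloid markers, 6 had a probe and 4 were above background on all arrays, and their summed intensity was 1640 to 22000 in CKO and 2430 to 31400 in Ctrl arrays. S100a8, a calprotectin subunit of neutrophils, read 8260, 1080 and 15900 in CKO and 14100, 1860 and 20800 in Ctrl arrays, lower in CKO in each same-numbered pair. S100a9 read 3220, 442 and 5440 in CKO and 6420, 497 and 9510 in Ctrl arrays, also lower in CKO in each pair. Cd14 read 571, 43 and 532 in CKO and 1360, 21.8 and 941 in Ctrl arrays, higher in CKO in replicate 2 alone. Lyz2 (lysozyme) read 248, 60.3 and 132 in CKO and 667, 29.1 and 159 in Ctrl arrays, likewise higher in CKO in replicate 2 alone. The dim Csf1r read 6.9, 15.5 and 20.7 in CKO and 10, 17.6 and 13.8 in Ctrl arrays, and Itgam was not above background on any array. On these arrays Zfp36 read 921, 707 and 767 in CKO and 2580, 1800 and 1770 in Ctrl. Within the pair of replicate 2, with the lowest S100a8 in either group, the Zfp36 difference was -1.34 and S100a8 was at 1080 in CKO and 1860 in Ctrl. The part of myeloid cells in the Zfp36 difference was not tested. Of 5 B cell markers, 3 had a probe, with sums of 14.7 to 19.9 in CKO and 15.2 to 26.4 in Ctrl arrays. Of 4 CD8 and NK markers Cd8a, Ncr1 and Klrb1c were above background on no array. Cd8b1 was on all 6, at 544, 625 and 934 in CKO and 656, 809 and 1030 in Ctrl arrays. Of 4 erythroid markers 2 had a probe, and Hba-a1 read 733, 557 and 1630 in CKO and 1280, 531 and 1860 in Ctrl arrays. Of 4 epithelial markers 0 were above background on all arrays, with sums of 29.6 to 48.8 in CKO and 6.03 to 84.3 in Ctrl arrays.

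**Figure D3:**
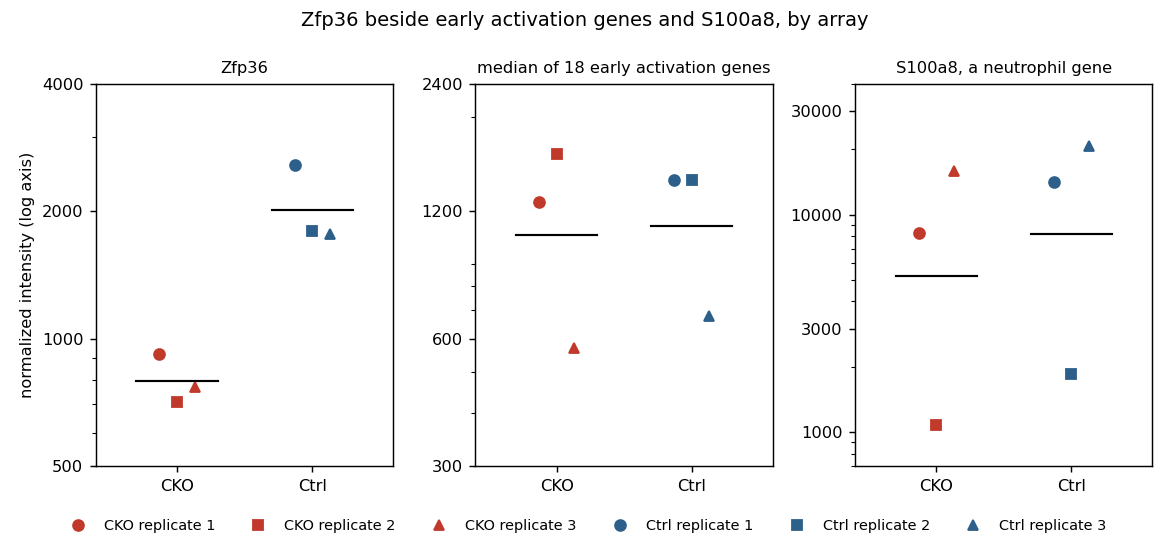
Normalized intensity (log axes, a different range in each panel) of Zfp36, of the median of 18 early activation genes and of the neutrophil gene S100a8 on each array. Points are arrays by replicate and lines geometric means, with Zfp36 separating CKO (707 to 921) from Ctrl (1770 to 2580). The early gene median and S100a8 overlap between the groups, and S100a8 is lower in CKO in each same-numbered pair.

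T cell and Treg markers differed from gene to gene. The summed intensity of all 11 was 13200 to 16100 in CKO and 22100 to 28100 in Ctrl arrays, and 10 of 11 were above background on all arrays, all but Cd5. Ctla4 and Tnfrsf18 made up a large part of that sum. Tnfrsf18 read 1550, 1570 and 1600 in CKO and 4380, 4550 and 2530 in Ctrl arrays, without overlap. Ikzf2 read 187, 490 and 181 in CKO and 792, 834 and 511 in Ctrl arrays, also without overlap. Cd3e, Cd3g and Il2ra overlapped between the groups but were lower in CKO in each same-numbered pair. Cd3d read 3510, 4510 and 2560 in CKO and 3900, 4400 and 4700 in Ctrl arrays. Cd28 read 518, 570 and 834 in CKO and 858, 436 and 522 in Ctrl arrays. Both overlapped between the groups, as Foxp3 did on its brighter probe. The dimmer Foxp3 probe read 30.9, 19 and 37.8 in CKO and 67.9, 35.7 and 48.6 in Ctrl arrays, lower in each pair. In bulk samples, fewer cells of a type and less RNA per cell cannot be told apart, and the part of cell composition in these results was not tested.

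Among genes whose pattern over the 6 arrays was most like that of Zfp36, the member with the largest SD of log2 values (0.77), Tdrd7 came first, with a root mean square difference of centred log2 values of 0.116. Tdrd7, a Tudor domain protein, read 23.9, 24.1 and 21.8 in CKO and 76.9, 52.4 and 53.3 in Ctrl arrays. Sgk1, a serum- and glucocorticoid-regulated kinase, followed at 0.184 and read 395, 358 and 302 in CKO and 1230, 636 and 665 in Ctrl arrays. Nat2, an arylamine N-acetyltransferase, was next at 0.185 and read 34.8, 30.5 and 39.5 in CKO and 93.2, 65 and 78.4 in Ctrl arrays. These genes were picked for this pattern, so their difference between the groups follows from the choice and carries no test. In each of them, as in Zfp36, the Ctrl array of replicate 1 was the highest.

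Proteins that act with the members or control them included 2 genes at the study's thresholds, both lower in CKO cells. Of 13 partners, relatives and regulators, 9 were tested, and all 9 had log2 fold changes below 0, as did 47.6% of all genes, with a median of -0.27. Lower at the thresholds were 2 of 9, beside 4.37% of all genes. Lower in all 3 same-numbered pairs were 5 of the 9 (55.6%), against 17.9% of all genes. N4bp1, a relative of the Regnases with an RNase domain of the same type, read 579, 477 and 569 in CKO and 1140, 1120 and 1040 in Ctrl arrays. The replicates lay close together, at means of 542 ± 56.4 and 1100 ± 51.4 (SD, n = 3 each), and the log2 fold change was -1.03 ± 0.21 (SE), with a limma adjusted p of 0.14 and 0.0505 with the replicate block. Malt1, the protease that cleaves Regnase-1, Roquins and N4BP1 after antigen receptor signals, read 53.2, 101 and 78 in CKO and 102, 215 and 152 in Ctrl arrays. CKO was lower in each same-numbered pair, with a log2 fold change of -0.99 ± 0.35 (adjusted p = 0.456, 0.0504 with the replicate block). Mapkapk2 (MK2), the kinase that phosphorylates Zfp36 and limits its activity, had a log2 fold change of -0.49 ± 0.27.

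Other proteins that bind 3' untranslated regions numbered 9, of which 8 were tested, with a median log2 fold change of 0.10. Hnrnpd (AUF1), which binds AU-rich elements, was the 1 gene at the study's thresholds and was higher in CKO cells, beside 3.06% of all genes. It read 15.4, 25.1 and 20.1 in CKO and 2.51, 12.3 and 8.54 in Ctrl arrays, above background on 3 of 3 CKO and 1 of 3 Ctrl arrays. Its log2 fold change of 1.14 ± 0.32 rests on the background level in Ctrl and had an adjusted p of 0.29 by limma (0.0379 with the replicate block). Arid5a, which protects mRNAs from Regnase-1, had a log2 fold change of 0.44 ± 0.24, and Tial1 of 0.45 ± 0.29.

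The enzymes that carry out the decay differed less than Zfp36. Of 18 deadenylation genes 14 were tested, of 15 decapping and 5'-to-3' decay genes 14, of 14 exosome and Ski complex genes 12, and of 8 nonsense-mediated decay genes 5. In these 4 lists, on the brightest probe of each gene, 0 genes reached the study's thresholds in either direction. There Ttc37 alone had an unadjusted p under 0.05 by limma, against 774 of all 9597 genes. With the replicate block, 4 of their genes had an unadjusted p under 0.05, against 1539 of all 9597 genes. Xrn1 was then lower at the thresholds (limma adjusted p = 0.138), beside 7.31% of all genes. The median log2 fold changes of the 4 lists were -0.17, 0.00, 0.12 and -0.14. Parn, a poly(A)-specific ribonuclease, and Ttc37, a Ski complex subunit, were each at 0.57. Btg1, which stimulates deadenylation, was at -0.50 and Xrn1, the 5'-to-3' exonuclease, at -0.68 ± 0.41. In the fit over probes, dimmer probes of the deadenylation genes Btg1 and Cnot7 met the study's thresholds, in opposite directions. That of Btg1 read 1890, 1640 and 1660 in CKO and 2670, 2920 and 2560 in Ctrl arrays (-0.65, limma adjusted p = 0.451). That of Cnot7 read 19.5, 13.2 and 14 in CKO and 10.1, 0.527 and 1.35 in Ctrl arrays (0.70, adjusted p = 0.482). All decay lists together held 77 genes, partners and binding proteins included, and 62 were tested. On the brightest probe of each, 2 were lower and 1 higher in CKO cells at the study's thresholds. Among all genes, 4.37% were lower and 3.06% higher. With the replicate block 3 were lower and 1 higher, beside 7.31% and 4.76% of all genes. The median of the 62 was -0.09.

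Il10 and Bcl2 were the reported targets of these proteins that passed the adjusted threshold, in opposite directions. Of 18 reported Zfp36 family targets, 16 were tested, and the study's thresholds were met by 4 that were lower and 1 that was higher, beside 4.37% and 3.06% of all genes. With the replicate block 5 were lower and 3 higher, beside 7.31% and 4.76% of all genes. They were Il10, Notch1, Cxcl2 and Ccl3, which were lower, Bcl2, which was higher, and Il17a, Cxcl1 and Ccl2. These last 3 were named after their values were seen, and they did not all differ in the same direction. The median log2 fold change of the 16 targets was -0.26. It was 0.04 without Ctrl replicate 1 and 0.17 without Ctrl replicate 3, so its sign rests on those arrays. Il10, the regulatory cytokine, fell to a mean of 111 ± 14.9 in CKO cells, against 5010 ± 1570 in Ctrl cells (SD, n = 3 each; log2 fold change -5.45, limma adjusted p = 0.00102). Bcl2, the survival factor, rose to 137 ± 20.6 in CKO cells, against 24.5 ± 8.33 in Ctrl cells (log2 fold change 2.53, adjusted p = 0.0277), and its 5 tested probes gave log2 fold changes of 0.99 to 2.53. The adjusted p of Bcl2 was 0.0549 with the slide block, 0.487 within slide 2 and 0.0442 to 0.138 with 1 array left out, passing there only without Ctrl replicate 2. These lists hold genes that other factors control as well.

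Notch1, a receptor in T cell differentiation, read 128, 127 and 231 in CKO and 309, 352 and 330 in Ctrl arrays (log2 fold change -1.09 ± 0.29, limma adjusted p = 0.257). The chemokine Cxcl2 read 469, 312 and 555 in CKO and 826, 648 and 1000 in Ctrl arrays (-0.91 ± 0.29). The chemokine Ccl3, named here after its values were seen, read 5130, 2730 and 5400 in CKO and 15800, 4570 and 17600 in Ctrl arrays, with a log2 fold change of -1.36 ± 0.54 and adjusted p-values of 0.527 without and 0.0486 with the replicate block. Cxcl2 and Ccl3, which myeloid cells make too, were both lowest in replicate 2 of either group, as S100a8 was. The part of myeloid cells in these differences was not tested. Tnf, the first described target of Zfp36, read 2650, 2750 and 1440 in CKO and 3090, 3440 and 3150 in Ctrl arrays (-0.56 ± 0.30). Its groups did not overlap on this probe, but it did not reach the study's thresholds.

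Of 14 reported Roquin and Regnase targets, 11 were tested, and all 11 had log2 fold changes below 0, as did 47.6% of all genes, with a median of -0.49 against 0.02 over all genes (-0.25 without CKO replicate 3). In all 3 same-numbered pairs 7 of the 11 (63.6%) were lower, against 17.9% of all genes. Ctla4, the inhibitory receptor of Treg cells, was the 1 gene at the study's thresholds, lower beside 4.37% of all genes. Nfkbid and the costimulatory receptor Icos, named after its values were seen, joined it with the replicate block, where 7.31% of all genes were lower. Ctla4 read 3580, 3850 and 2620 in CKO and 8550, 7040 and 6200 in Ctrl arrays, so that the lowest Ctrl array was well above the highest CKO array. Its log2 fold change was -1.12, with limma adjusted p-values of 0.176 without and 0.0421 with the replicate block. Tnfrsf4 (OX40), a costimulatory receptor, had a log2 fold change of -0.58 ± 0.22 and Nfkbid, an atypical IκB protein, of -0.83 ± 0.43 (adjusted p = 0.119 with the replicate block). The list also holds Zc3h12a itself, and Tnf stands in both target lists and among the early activation genes.

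**Figure D4:**
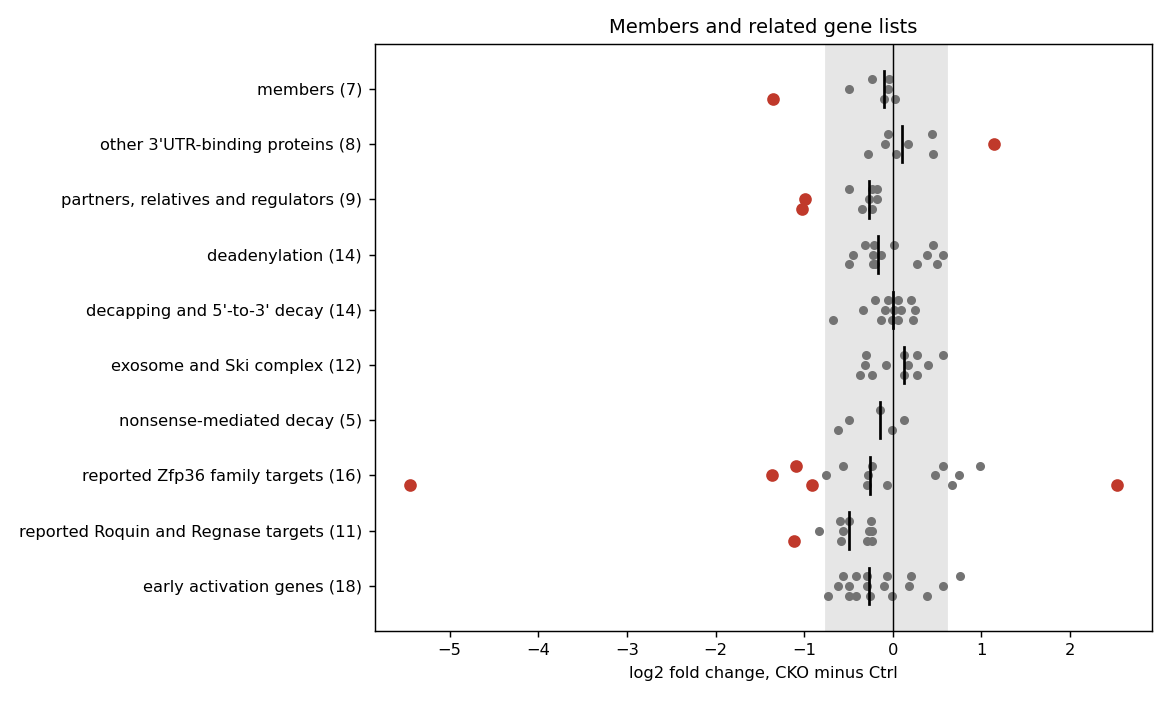
Log2 fold changes (CKO minus Ctrl) of the tested members and of each gene list, the number of tested genes in brackets. Each point is a gene, red where it met the study's thresholds without a block, short lines are medians and the grey band runs from the 5th to the 95th percentile of all 9597 genes (-0.75 to 0.61), with Zfp36 as the red point among the members and Il10 and Bcl2 as the outermost targets.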

How the data were processed

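Total RNA of sorted pTreg cells was amplified, biotin-labelled and hybridized to Illumina MouseWG-6 v2 arrays. The deposited table holds linear intensity values that the authors took from Illumina's Genome Studio and normalized by quantiles, with background subtracted (35.4% to 36% of values lie below 0). The array detection p-values were not used here. Column medians were 2.84 on slide 1 and 2.64 to 2.65 on slide 2, so all 6 columns were quantile normalized together. Values below an array's background (95th percentile of 1506 receptor probes) were raised to it before log2, and intensities in the text are given before that step. Probes above background on at least 2 arrays were kept (17300), and the brightest named probe per gene was tested. Of 45281 probes, 34885 have 1 symbol, 18 several and 10378 none, and symbols of 34807 were checked through identifiers in the RefSeq table. Arrays were grouped by genotype label and compared with limma 3.58.1 (lmFit, eBayes, no block, as the methods name none) in R 4.3.3, with Benjamini-Hochberg adjustment over all genes or probes, two-sided. The procedure was tested on simulated data. "Rose" and "fell" are kept for an adjusted p under 0.05.

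Replicate numbers pair the arrays through label days (replicates 2 and 3) and slide (replicate 1). Deviations from the group means correlated by 0.51, 0.49 and 0.56 within numbers and by -0.31 to -0.23 between them. Because the deviations of each group cancel out, the negative values between numbers follow largely from those within them and are no separate support. The text names all members and their probes, Prdm1, Il10 and Foxp3, genes of each list with an adjusted p under 0.05 or among the 4 smallest p-values (not all of which are printed), and the 3 genes most like the most variable member. Members and lists were chosen with earlier results of these data known. Alternatives were blocks for replicate and slide, the deposited values, background at the 99th percentile, log2 of value plus 16, other filters, the mean of probes, a trended robust variance, leaving out each array, and slide 2 alone.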

Additional observations from a re-analysis of the deposited data

How the results depend on the processing

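Zfp36 was lower in CKO cells in all 16 alternatives, by 2.25- to 2.75-fold, and was in each the 1 member gene at the study's thresholds. It passed the adjusted threshold in 4 of them. These were the replicate block (log2 fold change -1.35, adjusted p = 0.0235), log2 of value plus 16 (-1.33, 0.0441), no filter on dim probes (-1.35, 0.0139) and the trended robust variance (-1.35, 0.0287). Leaving out 1 array at a time gave -1.46 to -1.17 (limma adjusted p 0.204 to 0.307).

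The count of 26 genes became 183 with the replicate block, 16 with the slide block, 43 with the offset, 154 without the filter, 50 with the robust variance and 0 within slide 2 (617 at an unadjusted p under 0.05 by limma). It was 1 to 10 with 1 array left out, namely 1 without CKO replicate 1 or 2 or Ctrl replicate 1 or 3, 3 without CKO replicate 3 and 10 without Ctrl replicate 2. The count of 22 probes became 157, 6, 47, 389, 51 and 0 (918 unadjusted) in the same order, and 1 to 5 with 1 array left out.

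Members near 0 changed sign. Zfp36l1 was at 0.06 within slide 2, and Elavl1 at -0.01 as the mean of its probes and -0.04 within slide 2. The dim Elavl1 probe was at 0.12 with the 99th percentile and the dim Zfp36l1 probe at 0.00 with the offset. With 1 array left out, Zfp36l1 ranged over -0.17 to 0.11, Rc3h1 -0.27 to 0.21, Rc3h2 -0.40 to 0.20, Elavl1 -0.23 to 0.35, Zc3h12a -0.92 to -0.09 and Zc3h12d -0.49 to -0.03. In the same settings the dim Zfp36l1 probe ranged over -0.38 to 0.50, the dim Elavl1 probe -0.19 to 0.18 and Foxp3 -0.37 to 0.53. Foxp3 was at -0.38 as the mean of its probes. The median of the deadenylation list was 0.05 without the filter and -0.02 within slide 2, that of the Roquin and Regnase targets -0.29 without the filter and that of nonsense-mediated decay -0.01 with the mean of probes. With 1 array left out, the median of the Zfp36 family targets ranged over -0.46 to 0.17 and that of the early activation genes over -0.44 to 0.09. Prdm1 and Bcl2 each lost the adjusted threshold in 7 of 16 alternatives, and Il10 in 1, within slide 2 (adjusted p = 0.258). N4bp1 passed with the robust variance (adjusted p = 0.0483) and Ctla4 without the filter (0.0496). The causes were not tested. Dim probes (Rc3h1, Hnrnpd, the second probes of Zc3h12a and Elavl1) lie within a few fold of background.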

Other observations

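Other genes named for CCCH zinc fingers and the microRNA machinery, a further route of mRNA repression, were listed after the values had been seen. Of 15 other Zc3h genes, 12 were tested, and 0 reached the study's thresholds (0 at an unadjusted p under 0.05 by limma). Their log2 fold changes lay between -0.64 and 0.47, with a median of 0.07. Of 13 microRNA machinery genes, 11 were tested, with a median of -0.22. Tnrc6c alone was at the thresholds, lower beside 4.37% of all genes. Tnrc6c, a GW182 protein that joins Argonaute to the deadenylases, read 110, 76.4 and 108 in CKO and 177, 129 and 162 in Ctrl arrays (log2 fold change -0.67 ± 0.25 SE). All 3 CKO arrays were below the 3 Ctrl arrays.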
